A study of Homo sapiens with 9 samples.

Results

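The 10 genes described here encode enzymes of serine synthesis, mitochondrial one-carbon metabolism and asparagine synthesis, and amino acid transport proteins of the plasma membrane. They were chosen by their gene symbols, PHGDH, PSAT1, PSPH, SHMT2, MTHFD2, ALDH1L2, ASNS, SLC7A11, SLC7A5 and SLC3A2, and all 10 were found among the 60683 genes of the count table. RNA was sequenced from 9 cultures of Hep3B, a human liver cancer cell line, in 3 groups of 3 biological replicates. The groups were vehicle (DMSO) at 20% O2, vehicle at 1% O2, and 32-134D at 1% O2, each kept for 24 hours. 32-134D is a small molecule inhibitor of the hypoxia-inducible factors (HIFs), the transcription factors that activate genes when oxygen is scarce. The labels name a mixture of DMEM and F12 as the medium and the study's methods name high-glucose DMEM, media that differ in their amino acids, so the supply of serine, glycine and cystine to these cultures is uncertain. The labels give all 9 cultures the same medium. They state no dose, although the paper gives one for its RNA-seq. All cultures came from a single cell line, and no culture received the compound at 20% O2. The comparison of the vehicle groups measures the response to hypoxia, and the comparison of the groups at 1% O2 measures the effect of the compound in hypoxic cells.

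PHGDH, PSAT1 and PSPH act in that order to turn the glycolytic intermediate 3-phosphoglycerate into serine. In mitochondria SHMT2 splits serine into glycine and a one-carbon unit carried by folate, MTHFD2 oxidizes that unit, and ALDH1L2 can burn it to CO2 while making NADPH. ASNS makes asparagine from aspartate with nitrogen from glutamine. SLC7A11 imports cystine in exchange for glutamate, SLC7A5 imports leucine and other large neutral amino acids, and SLC3A2 is the heavy chain that carries either of them to the cell surface. ATF4, the transcription factor of the integrated stress response, is known to activate most of these genes when amino acids run short or when proteins misfold in the endoplasmic reticulum. Tumor cells use these pathways for nucleotide synthesis and redox balance.

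The bases before the transcription start are shown for 4 genes, ASNS and SLC7A5 because they hold recognizable elements, and MTHFD2 and SLC3A2 because they had the largest increases in hypoxia. The sequences are from RefSeq on GRCh38.p14, where 6 of the 10 genes were matched by symbol, with 9 listed starts, and the names without an entry are PSPH, SHMT2, ALDH1L2 and SLC7A11. Each run is the 140 bases before the first listed start, written 5′ to 3′ on the strand of the gene, at chr7:97872409-97872548 (minus strand) for ASNS, chr16:87869508-87869647 (minus) for SLC7A5, chr2:74198475-74198614 (plus) for MTHFD2 and chr11:62881559-62881698 (plus) for SLC3A2. Capitals mark TGATGNAA, a form of the element bound by ATF4 with C/EBP partners, and ACGTG or GCGTG, the core letters of a hypoxia response element, each searched on both strands.
ASNS: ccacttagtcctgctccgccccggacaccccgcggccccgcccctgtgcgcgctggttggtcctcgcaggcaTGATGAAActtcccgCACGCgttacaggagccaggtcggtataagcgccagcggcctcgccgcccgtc
SLC7A5: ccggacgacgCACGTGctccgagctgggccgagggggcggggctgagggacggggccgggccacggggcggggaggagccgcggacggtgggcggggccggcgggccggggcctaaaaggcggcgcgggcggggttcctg
MTHFD2: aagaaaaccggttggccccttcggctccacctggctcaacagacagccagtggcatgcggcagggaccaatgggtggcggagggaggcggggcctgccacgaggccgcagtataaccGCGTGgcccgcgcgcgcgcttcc
SLC3A2: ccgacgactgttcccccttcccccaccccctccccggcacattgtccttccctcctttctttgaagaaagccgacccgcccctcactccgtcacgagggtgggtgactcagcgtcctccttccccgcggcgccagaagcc
In ASNS the element TGATGAAA lies 68 to 61 bases before the start, and CACGC, the reverse complement of GCGTG, lies 53 to 49 bases before it. In MTHFD2, GCGTG lies 23 to 19 bases before the start. In SLC7A5 the capitals are a palindrome in which ACGTG is read on both strands, with the 2 matches overlapping. Over the 250 bases before each of 35116 listed starts, TGATGNAA was present in 3.14%, ACGTG in 18.5% and GCGTG in 32.2%. Of the 9 starts of these genes, 1 held TGATGNAA, 2 held ACGTG and 6 held GCGTG. SLC3A2 held none of the letters in the run shown, and GCGTG was found before both of its other starts. The run of SLC3A2 ends at a start inside the gene as GENCODE 29 draws it. That annotation puts the 5′ end of ASNS at 97872542 and of MTHFD2 at 74198562. Most of the ASNS run, and the capitals of both runs, therefore lie inside the annotated genes. A match is a description of the letters and says nothing of whether a factor was bound.

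Total counts were between 6013980 and 40549699 per library, and 22672 genes with at least 10 counts over the 9 libraries were tested, all 10 described here among them. Levels are given as CPM, counts scaled to a common library size with the TMM method. A gene was called higher or lower when edgeR's quasi-likelihood test gave it an FDR (Benjamini-Hochberg) below 0.05 and it changed by more than 1.5-fold. The liver genes ALB, APOA2, SERPINA1 and HNF4A were abundant in every group, with ALB at a mean of 8116 CPM or more. The markers of other cell types were at or near 0 for PTPRC, CDH5 and ACTA2, with 7, 1 and 0 counts in all, and low for PECAM1 and COL1A1, with 131 and 1245 counts. AFP had a log2 fold change of -0.69 in hypoxia and TTR of -0.92 with 32-134D, both called, and PECAM1 and COL1A1 were called lower in hypoxia, at -1.88 and -0.85, and higher with 32-134D, at 1.93 and 0.94. Their part in the results was not tested. The HIF targets CA9, EPO, VEGFA, ANGPTL4 and NDRG1 were called higher in hypoxia, 5 of 5, and lower with 32-134D, 5 of 5. Replicate 3 of 32-134D stood apart from its group, as its chi-square per degree of freedom was 36.4 against replicate 1 and 32.5 against replicate 2, and 2.0 between those 2. Results with the compound are therefore also given without that library where it changes them. These are bulk libraries, so fewer cells with an RNA cannot be told apart from less of that RNA per cell.

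Hypoxia raised 8 of the 10 genes, PHGDH, PSAT1, SHMT2, MTHFD2, ASNS, SLC7A11, SLC7A5 and SLC3A2, and lowered none. Over all genes tested, 19.5% were called higher and 20.3% lower. Among the 9878 genes with a mean of at least 10 CPM, these shares were 29.1% and 17.8%. The median log2 fold change of the 10 genes was 1.51, against 0.000997 over all genes tested. In each of the 8 genes, every library of vehicle at 1% O2 lay above every library of vehicle at 20% O2. Separation of these groups, in either direction, was common in the pathway lists described below. It was seen in 18 of 24 one-carbon and glycine genes, 12 of 15 amino acid synthesis genes and 21 of 29 other transporters. The share over all genes was not computed. PSPH and ALDH1L2 were not called.

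**Figure D1:**
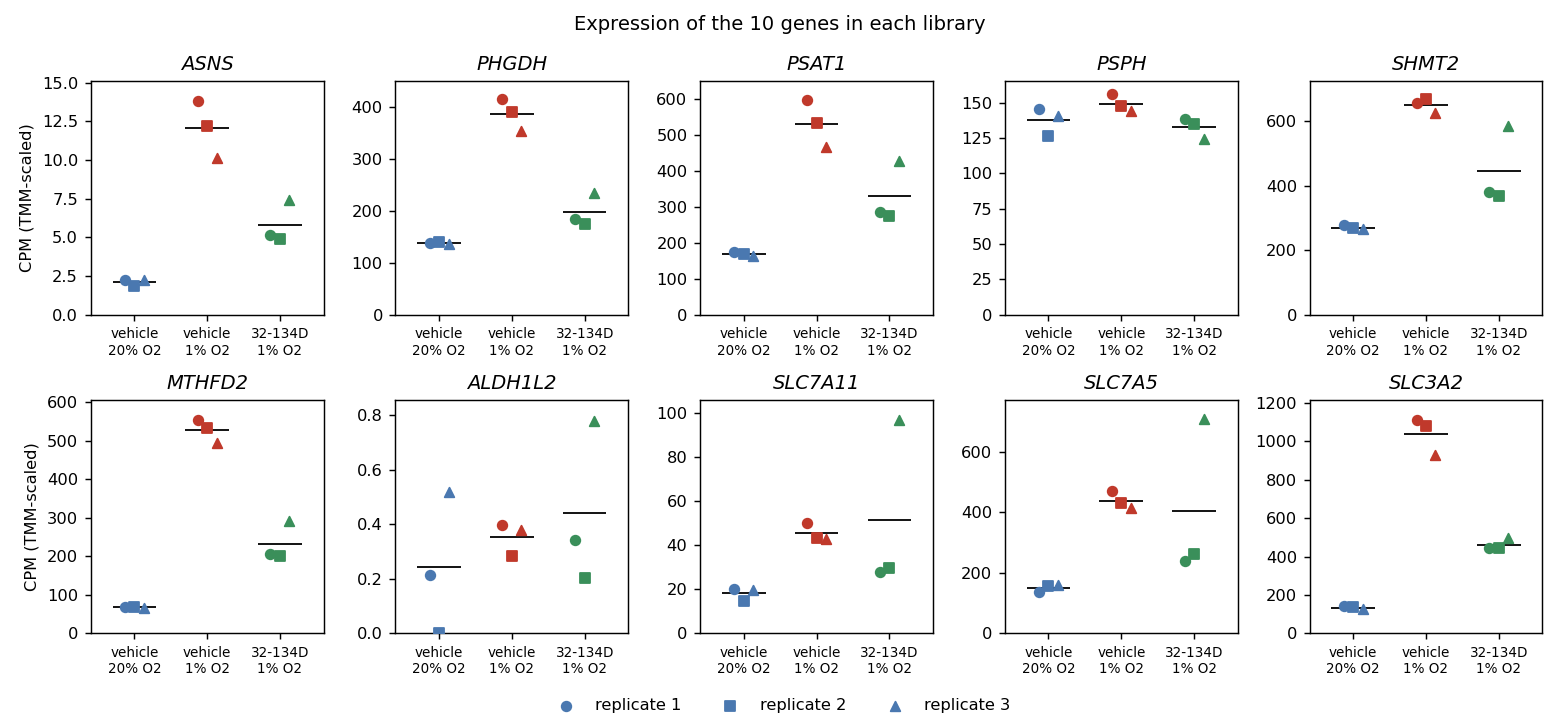
Expression of the 10 genes in each library, in TMM-scaled CPM on axes that start at 0, with 1 point per library, a symbol for each replicate and a line at the group mean. In 8 panels the libraries of vehicle at 1% O2 lie above those of vehicle at 20% O2, and in the panels of SLC7A11 and SLC7A5 replicate 3 of 32-134D, at 97.0 and 708 CPM, lies above every other library.

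32-134D lowered 5 of the 10 genes against vehicle at 1% O2, PHGDH, PSAT1, MTHFD2, ASNS and SLC3A2, and raised none. Over all genes tested, 13.7% were called lower and 16.2% higher. Among the 9878 genes with a mean of at least 10 CPM, 19.3% were called lower and 14.1% higher. The median log2 fold change of the 10 genes was -0.62, against -0.0116 over all genes tested. Without replicate 3 of 32-134D, SHMT2, SLC7A11 and SLC7A5 were also called lower, which made 8 of 10, where 14.1% of all genes tested were called lower. Without replicate 1 or without replicate 2 of 32-134D, PSAT1 was no longer past the fold limit, which left 4. Both this comparison and the hypoxia comparison use the 3 libraries of vehicle at 1% O2, so a high or low value there moves the 2 results in opposite directions.

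Against vehicle at 20% O2, the cells given 32-134D at 1% O2 were still higher in 7 of the 10 genes and lower in none. Here only 3.0% of all genes tested were called higher and 0.516% lower. Among the 9878 genes with a mean of at least 10 CPM, 4.57% were called higher and 0.415% lower. The 7 genes were MTHFD2, SLC3A2, SLC7A11, SLC7A5, ASNS, PSAT1 and SHMT2, with log2 fold changes of 1.79, 1.78, 1.46, 1.42, 1.39, 0.96 and 0.72. PHGDH was 1.43-fold higher (FDR 0.00444 from edgeR), short of the fold limit. SLC7A11 was not called when any single library of vehicle at 20% O2 was left out, with FDRs between 0.0598 and 0.0980, or when only those 2 groups were fitted (FDR 0.0734, all from edgeR). SHMT2 was no longer past the fold limit without replicate 3 of 32-134D, at a log2 fold change of 0.47.

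**Figure D2:**
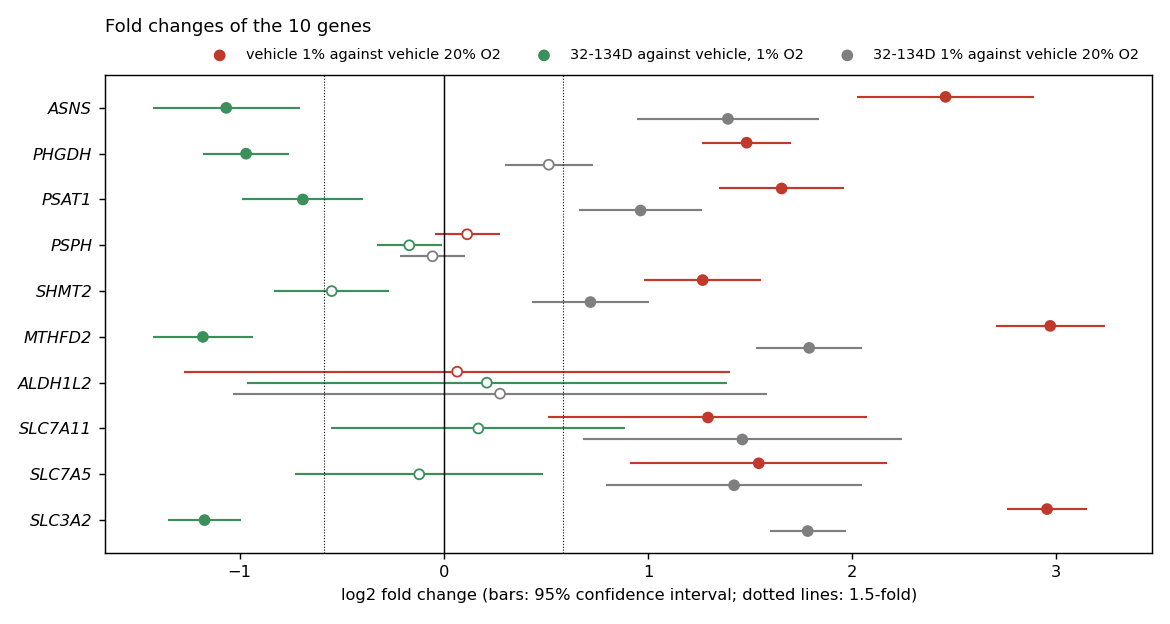
Log2 fold changes of the 10 genes in the 3 comparisons, with 95% confidence intervals, where filled points were called and open points were not, and dotted lines mark a change of 1.5-fold. MTHFD2 and SLC3A2 have the largest increases in hypoxia, at 2.97 and 2.95, and the intervals of SLC7A11 and SLC7A5 with 32-134D span 0.

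Of the serine synthesis enzymes, PHGDH and PSAT1 rose in hypoxia and PSPH did not pass the test. PHGDH (ENSG00000092621, chromosome 1, 119648411 to 119744226, plus strand, GRCh38) catalyzes the committed oxidation of the pathway. It was at 139, 139.8 and 136 CPM in replicates 1, 2 and 3 of vehicle at 20% O2, at 415, 389.6 and 355 CPM in vehicle at 1% O2, and at 184, 174 and 234 CPM with 32-134D. The 3 groups did not overlap, and the compound libraries lay between the vehicle groups. The log2 fold change was 1.48 in hypoxia (SE 0.10, FDR 1.40e-08 from edgeR) and -0.97 with 32-134D (SE 0.10, FDR 1.71e-06).

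PSAT1 (ENSG00000135069, chromosome 9, 78297143 to 78330093, plus strand), the transaminase that takes nitrogen from glutamate, was at 174, 169 and 163 CPM in vehicle at 20% O2. It was at 597, 532 and 465 CPM in vehicle at 1% O2 and at 285, 275 and 428 CPM with 32-134D. The groups did not overlap, although replicate 3 of 32-134D came close to the lowest library of vehicle at 1% O2. PSAT1 rose by a log2 fold change of 1.65 in hypoxia (SE 0.14, FDR 1.56e-07 from edgeR). With 32-134D its log2 fold change was -0.69 (SE 0.14, FDR 0.000749 from edgeR). This call was also lost when libraries were scaled by their totals, at -0.51, and without replicate 1 or 2 of 32-134D, at -0.54 and -0.58.

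PSPH (ENSG00000146733, chromosome 7, 56011051 to 56051604, minus strand), the phosphatase that releases serine, was called in no comparison. It was at 145, 127 and 141 CPM in vehicle at 20% O2, at 156, 147 and 144 CPM in vehicle at 1% O2, and at 139, 135 and 125 CPM with 32-134D. The vehicle groups overlapped. The log2 fold change in hypoxia was 0.11, with a 95% confidence interval from -0.05 to 0.27 (FDR 0.218 from edgeR), which lies wholly under the 1.5-fold limit. With 32-134D it was -0.17, with an interval from -0.33 to -0.01 (FDR 0.0737 from edgeR), and here the 2 groups did not overlap. Both signs turned when libraries were scaled by their totals, to -0.10 and 0.02.

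Reads of PSPH can be shared with PSPHP1, a near-identical pseudogene that held 6735 counts, or 20.9% of those of PSPH. PSPHP1 itself was at 23.5, 19.3 and 18.1 CPM in vehicle at 20% O2, at 42.9, 44.8 and 48.9 CPM in vehicle at 1% O2, and at 21.5, 20.5 and 15.4 CPM with 32-134D. Its log2 fold change was 1.17 in hypoxia (FDR 2.33e-06 from edgeR) and -1.25 with the compound (FDR 1.46e-06). Summed with PSPHP1, an alternative added after seeing the data, PSPH had log2 fold changes of 0.30 (FDR 0.00343 from edgeR) and -0.36 (FDR 0.00101), both short of the fold limit. How the reads of the pair were divided in counting was not tested.

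Of the mitochondrial enzymes, SHMT2 and MTHFD2 rose in hypoxia and ALDH1L2 was too low to compare. MTHFD2 (ENSG00000065911, chromosome 2, 74198562 to 74217565, plus strand) is an enzyme of embryonic and tumor cells that is scarce in most adult tissues. It was at 68.5, 68.1 and 65.5 CPM in vehicle at 20% O2, at 554, 533 and 494 CPM in vehicle at 1% O2, and at 206, 201 and 291 CPM with 32-134D. MTHFD2 was 7.83-fold higher in hypoxia, a log2 fold change of 2.97 (SE 0.12, FDR 1.27e-10 from edgeR), and no library of 1 group reached those of another. With 32-134D its log2 fold change was -1.18 (SE 0.12, FDR 1.06e-06 from edgeR), and -1.37 without replicate 3. With the compound it was 3.46-fold above vehicle at 20% O2 (FDR 3.46e-07 from edgeR). Its exons overlap those of SLC4A5 and AC006030.1 on the other strand, which held 79 and 164 counts in all against 69655 for MTHFD2.

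SHMT2 (ENSG00000182199, chromosome 12, 57229327 to 57234935, plus strand) was at 277, 268 and 264 CPM in vehicle at 20% O2. It was at 655, 669 and 624 CPM in vehicle at 1% O2 and at 381, 367 and 583 CPM with 32-134D. Replicates 1 and 2 of 32-134D lay nearer to vehicle at 20% O2, and replicate 3 lay just under the lowest library of vehicle at 1% O2. SHMT2 rose by a log2 fold change of 1.27 in hypoxia (SE 0.13, FDR 1.36e-06 from edgeR). With 32-134D the log2 fold change was -0.55 (SE 0.13, FDR 0.00303 from edgeR), short of the fold limit, and it was -0.80 without replicate 3 (FDR 6.83e-11), past it. Its exons share 33 bases with NDUFA4L2 on the other strand, a gene with 1305 counts against 108236 for SHMT2.

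ALDH1L2 (ENSG00000136010, chromosome 12, 105019784 to 105084577, minus strand) had 87 counts over the 9 libraries. The counts were 3, 0 and 17 in vehicle at 20% O2, 15, 6 and 11 in vehicle at 1% O2, and 12, 6 and 17 with 32-134D. All groups overlapped. Its log2 fold change was 0.07 in hypoxia, with a 95% confidence interval from -1.27 to 1.40 (FDR 0.943 from edgeR), and 0.21 with 32-134D, from -0.97 to 1.39 (FDR 0.787). Changes within these intervals were not detectable at this depth. ALDH1L2 also shares 145 exon bases with C12orf45 on the other strand, which held 2627 counts, so some of its few counts could be reads of that gene if strand was not used in counting.

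ASNS (ENSG00000070669, chromosome 7, 97852118 to 97872542, minus strand) had few counts assigned to it and a large relative change. It was at 2.22, 1.88 and 2.28 CPM in vehicle at 20% O2, at 13.8, 12.2 and 10.1 CPM in vehicle at 1% O2, and at 5.13, 4.88 and 7.41 CPM with 32-134D. The groups did not overlap. The log2 fold change was 2.46 in hypoxia (SE 0.20, FDR 9.43e-08 from edgeR) and -1.07 with 32-134D (SE 0.17, FDR 9.74e-05). With 32-134D it was still 2.62-fold above vehicle at 20% O2 (FDR 0.000579 from edgeR).

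The level of ASNS is uncertain, because 1985 of its 4455 exon bases also belong to AC079781.5, a transcript of the same strand, and because the pseudogene ASNSP1 held 675 counts, or 40.2% of the 1678 counts of ASNS. AC079781.5 was at 2.44, 1.88 and 3.35 CPM in vehicle at 20% O2 and at 2.15, 1.32 and 1.42 CPM in vehicle at 1% O2, and on the log2 scale it changed by -0.72 (edgeR FDR 0.0336), against the direction of ASNS. ASNSP1 had a log2 fold change of 1.97 in hypoxia (FDR 0.000739 from edgeR). With the 3 genes summed, an alternative added after seeing the data, ASNS was called in the same direction in each comparison, with smaller log2 fold changes of 1.58 in hypoxia (FDR 1.05e-05 from edgeR), -0.68 with 32-134D (FDR 0.00664) and 0.90 against vehicle at 20% O2 (FDR 0.0129).

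Of the transport proteins, the heavy chain SLC3A2 had the largest change in hypoxia and the smallest SE. SLC3A2 (ENSG00000168003, chromosome 11, 62856102 to 62888875, plus strand) was at 141, 138 and 124 CPM in vehicle at 20% O2, at 1110.2, 1080.3 and 929.8 CPM in vehicle at 1% O2, and at 443, 446 and 496 CPM with 32-134D. The groups did not overlap, and replicate 3 of 32-134D stayed close to the other two. The log2 fold change was 2.95 in hypoxia (SE 0.09, FDR 5.69e-12 from edgeR), a 7.75-fold increase. It was -1.17 with 32-134D (SE 0.08, FDR 6.46e-08 from edgeR), and the gene remained 3.44-fold above vehicle at 20% O2 (FDR 1.88e-08).

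SLC7A5 (ENSG00000103257, chromosome 16, 87830023 to 87869488, minus strand), the light chain for leucine, was at 137, 156 and 158 CPM in vehicle at 20% O2. It was at 469, 432 and 413 CPM in vehicle at 1% O2 and at 240.2, 263 and 708 CPM with 32-134D. Replicates 1 and 2 of the compound lay below every library of vehicle at 1% O2, and replicate 3 lay above them all. SLC7A5 rose by a log2 fold change of 1.54 in hypoxia (SE 0.29, FDR 0.000390 from edgeR). With 32-134D the log2 fold change was -0.12, with a 95% confidence interval from -0.73 to 0.49 (FDR 0.761 from edgeR), and it was -0.80 without replicate 3 (FDR 7.25e-10). With total counts as the scale it was 0.07.

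SLC7A11 (ENSG00000151012, chromosome 4, 138164097 to 138242349, minus strand), the light chain for cystine and glutamate, was at 20.3, 14.6 and 19.6 CPM in vehicle at 20% O2. It was at 50.2, 43.5 and 42.8 CPM in vehicle at 1% O2 and at 28, 29.9 and 97.0 CPM with 32-134D. As for SLC7A5, replicates 1 and 2 of the compound were below and replicate 3 above every library of vehicle at 1% O2. SLC7A11 rose by a log2 fold change of 1.29 in hypoxia (SE 0.36, FDR 0.00754 from edgeR). With 32-134D the log2 fold change was 0.17, with a 95% confidence interval from -0.55 to 0.89 (FDR 0.717 from edgeR), and without replicate 3 it turned to -0.66 (FDR 1.32e-06).

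The excess in replicate 3 of 32-134D differed widely among the 10 genes. Relative to the mean of replicates 1 and 2, it was 3.35-fold in SLC7A11, 2.87-fold in ALDH1L2, which rests on few counts, and 2.81-fold in SLC7A5. It was 1.56-fold in SHMT2, 1.53-fold in PSAT1, 1.48-fold in ASNS, 1.43-fold in MTHFD2 and 1.31-fold in PHGDH. SLC3A2 and PSPH were near the other replicates, at 1.12-fold and 0.913-fold. Without replicate 3 the log2 fold changes of ASNS, PHGDH, PSAT1 and SLC3A2 with 32-134D were -1.27, -1.11, -0.92 and -1.23, all called. In the excess of replicate 3 among 9878 genes with a mean of at least 10 CPM, the median was 0.996. Of these genes 2.68% were 1.5-fold or more above the other replicates, and 4.24% were 1.5-fold or more below them. The level of ATF4 mRNA in this library was 1.18-fold that of the other 2. Among the 11 regulators of these genes described below, 2 were at least 1.5-fold above the other replicates and 9 lay between, with a median of 1.17. Those 2, named after their values were seen, were TRIB3 at 1.91-fold and MYC at 1.52-fold. Of the 29 other transporters tested, 6 were at least 1.5-fold above the other replicates in this library, 7 were at least 1.5-fold below them and 16 lay between, with a median of 1.053. Some of these transporters lay under 10 CPM, such as SLC1A2 with 10 counts in all, so their ratios rest on few counts. The extremes with a mean of at least 1 CPM, named after their values were seen, were SLC6A15, SLC6A9 and SLC7A1 at 4.12-fold, 2.03-fold and 1.92-fold, and SLC6A14, SLC38A4 and SLC1A3 at 0.185-fold, 0.190-fold and 0.436-fold. Markers moved in the same library, since AFP was 0.432-fold, TTR 0.271-fold and ALB 0.647-fold of the other replicates, and PECAM1 and COL1A1 were 1.97-fold and 1.93-fold. The 6 liver markers ranged from 0.271-fold to 1.08-fold. Their part in the values of SLC7A11 and SLC7A5 was not tested.

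**Figure D3:**
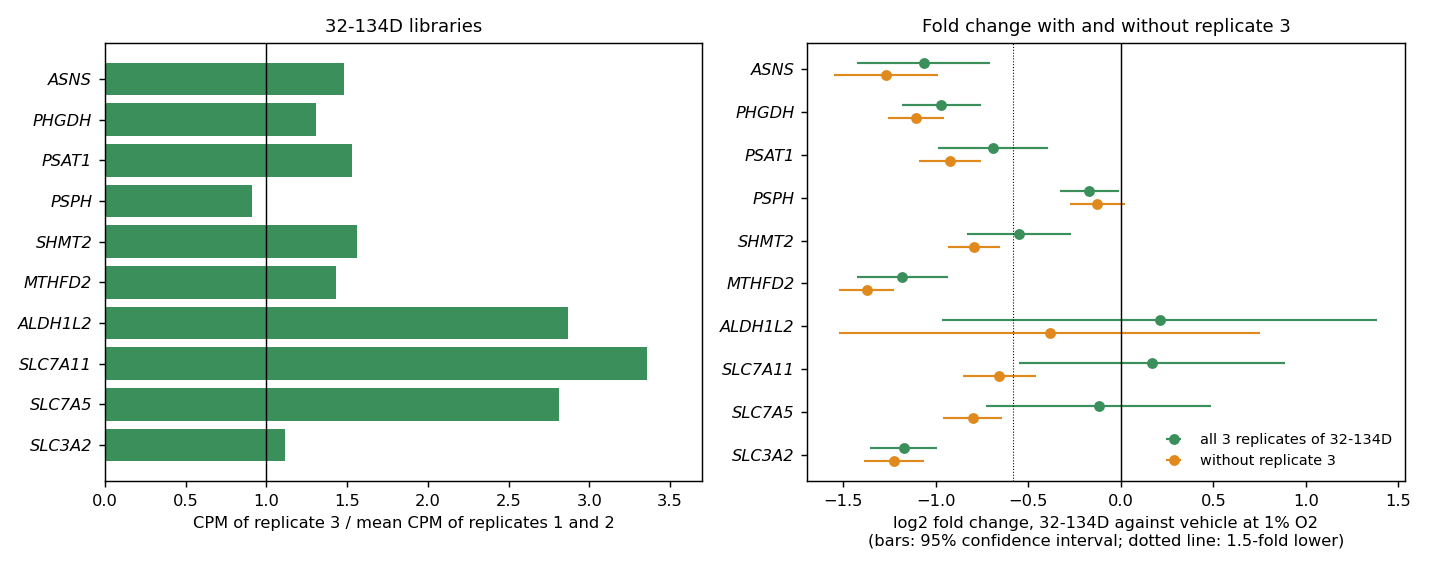
Left, CPM of replicate 3 of 32-134D divided by the mean of replicates 1 and 2 for each of the 10 genes, with a line at 1. Right, log2 fold changes of 32-134D against vehicle at 1% O2 with 95% confidence intervals, with all 3 replicates and without replicate 3, where SLC7A11 moves from 0.17 to -0.66 and SLC7A5 from -0.12 to -0.80 while SLC3A2 moves from -1.17 to -1.23.

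Per length, the order of the genes changed between the groups. Levels divided by the exon length in GENCODE 29, in CPM per kilobase, put PSAT1 first in vehicle at 20% O2 with 77.2 ± 2.56 (SD, n = 3), followed by SHMT2 at 55.7, PSPH at 49.8, SLC7A5 at 31.7, SLC3A2 at 26, PHGDH at 15, MTHFD2 at 13.8, SLC7A11 at 1.88, ASNS at 0.478 and ALDH1L2 at 0.0287. The libraries of neighbors in that order did not overlap. In vehicle at 1% O2, PSAT1 at 243 ± 30.1 (SD, n = 3) and SLC3A2 at 200.9 ± 18.7 (SD, n = 3) overlapped and so were not ordered, and MTHFD2 at 108 passed PSPH at 54.0 and PHGDH at 41.9. With 32-134D, SHMT2 at 91.7 ± 25.0, SLC3A2 at 89.1 ± 5.77 and SLC7A5 at 85.1 ± 55.5 CPM per kilobase (SD, n = 3) overlapped, as did PSPH at 48.0 and MTHFD2 at 47.8. The length of PHGDH, 9217 bases, includes exons of long annotated isoforms, which lowers its value on this scale. The level of ASNS is uncertain for the reasons given above, and so is its place in the order.

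Ratios of counts within a library, which do not depend on scaling, give the balance between partners. SHMT1 and MTHFD1, the cytosolic counterparts, were chosen as partners after their values were seen. The ratio of SHMT2 to SHMT1 was 3.12, 2.91 and 2.95 in vehicle at 20% O2, 11, 11.6 and 10.6 in vehicle at 1% O2, and 4.68, 4.91 and 9.51 with 32-134D. The ratio of MTHFD2 to MTHFD1 was 0.617, 0.520 and 0.569 in vehicle at 20% O2, so that the cytosolic enzyme had more counts there. It was 8.18, 7.86 and 6.85 in vehicle at 1% O2 and 1.91, 1.91 and 2.42 with 32-134D, with no overlap between the groups. SHMT1 and MTHFD1 themselves had log2 fold changes of -0.62 and -0.78 in hypoxia (FDR 3.96e-05 and 1.25e-06 from edgeR), so both parts of each ratio moved.

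Within the serine pathway, the ratio of PSPH to PHGDH was 1.048, 0.906 and 1.03 in vehicle at 20% O2 and 0.376, 0.378 and 0.406 in vehicle at 1% O2. With 32-134D it was 0.753, 0.773 and 0.532, between the vehicle groups in each library. Among the transporters, the ratio of SLC7A5 to its heavy chain SLC3A2 was 0.972, 1.13 and 1.27 in vehicle at 20% O2, and 0.423, 0.400 and 0.444 in vehicle at 1% O2. With 32-134D it was 0.542, 0.591 and 1.43, so that replicate 3 lay above every vehicle library. The ratio of SLC7A11 to SLC3A2 ran the same way, with 0.144, 0.106 and 0.158, then 0.0452, 0.0403 and 0.0460, and 0.0631, 0.0671 and 0.196 with 32-134D. Both light chains were thus lower relative to the heavy chain in every library of vehicle at 1% O2. Each of these 5 ratios separated the vehicle groups with an exact two-sided permutation p of 0.1, the smallest that 3 libraries against 3 can give. The separation follows from the unequal fold changes of the paired genes in the same libraries, so it is a description and no separate support. The ratio of SLC7A11 to SLC7A5 overlapped between the vehicle groups (exact permutation p = 0.4).

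**Figure D4:**
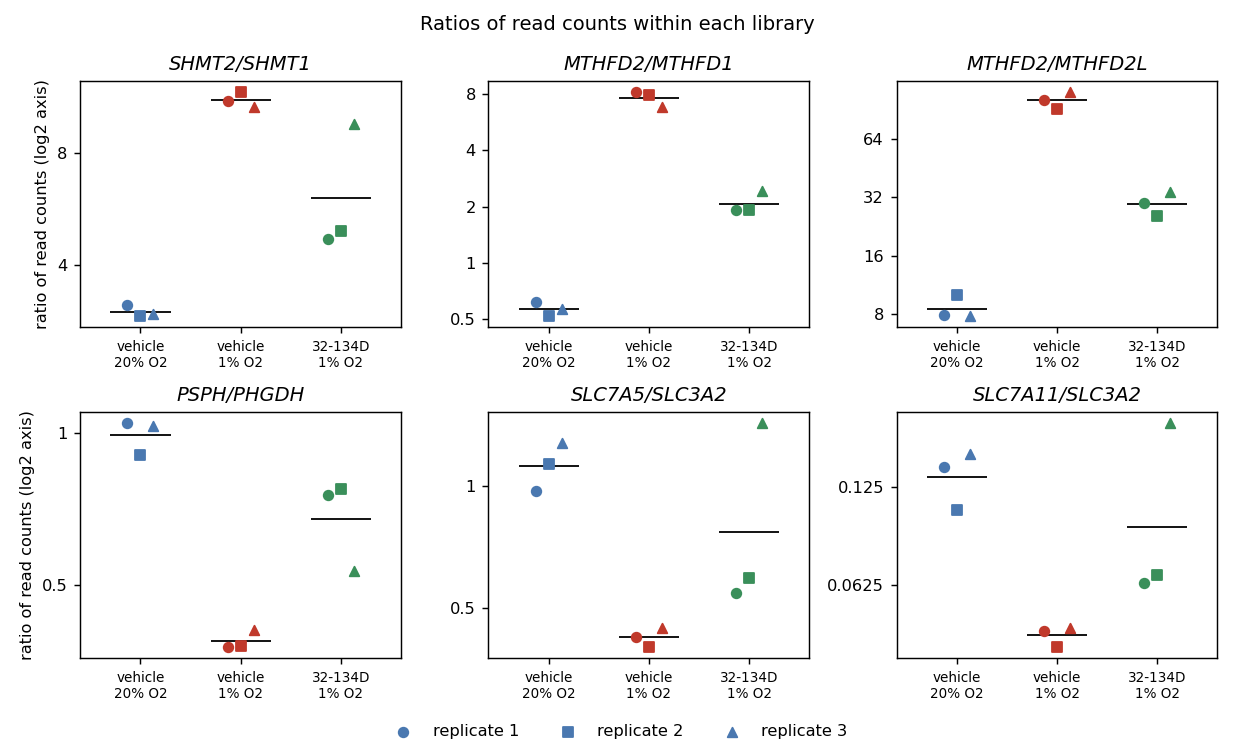
Ratios of read counts within each library on log2 axes, with 1 point per library, a symbol for each replicate and a line at the group mean. The ratio of MTHFD2 to MTHFD1 runs from 0.520 to 0.617 in vehicle at 20% O2 and from 6.85 to 8.18 in vehicle at 1% O2, and the ratios of both light chains to SLC3A2 are lowest in vehicle at 1% O2.

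The other genes of the same pathways were called in both directions. Over all genes tested, 19.5% were called higher and 20.3% lower in hypoxia, and 16.2% higher and 13.7% lower with 32-134D. Of 24 tested genes of one-carbon and glycine metabolism, 4 (16.7%) were called higher and 10 (41.7%) lower in hypoxia, with a median log2 fold change of -0.30. With 32-134D, 7 (29.2%) were called higher and 2 (8.33%) lower, with a median of 0.22. Without replicate 3 of 32-134D, AMT, with 110 counts in all, was also called higher, at 1.06. With libraries scaled by their totals the splits were 1 and 10 in hypoxia and 8 and 0 with 32-134D, and the 2 lower with the compound became 1 without replicate 1 of vehicle at 20% O2 or replicate 3 of vehicle at 1% O2. SARDH, which breaks down sarcosine in mitochondria, had log2 fold changes of -2.51 in hypoxia and 1.83 with 32-134D (FDR 8.28e-07 and 2.45e-05 from edgeR). GLDC of the glycine cleavage system, MAT2A, which makes S-adenosylmethionine, and the methionine synthase MTR had log2 fold changes of -1.22, -1.19 and -0.94 in hypoxia and 0.75, 1.18 and 0.85 with 32-134D, all called. MTHFD2L, the close relative of MTHFD2 and named after its values were seen, had a log2 fold change of -0.62 in hypoxia (FDR 0.00333 from edgeR), and the ratio of MTHFD2 to MTHFD2L was between 7.83 and 10.1 in vehicle at 20% O2, between 91.2 and 111 in vehicle at 1% O2, and between 25.7 and 33.9 with 32-134D.

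Of 15 genes of other nonessential amino acid synthesis, 3 (20%) were called higher and 5 (33.3%) lower in hypoxia. With 32-134D, 5 (33.3%) were called higher and 2 (13.3%) lower. Without replicate 3 of 32-134D, PYCR1 was also called lower, at -0.60. The aminotransferases for alanine split, as the mitochondrial GPT2 had log2 fold changes of 1.66 in hypoxia and -0.91 with 32-134D (FDR 5.11e-07 and 0.000191 from edgeR), and the cytosolic GPT had -2.25 and 1.47 (FDR 3.15e-06 and 0.000227). OAT, which links ornithine to proline and glutamate, had 1.68 and -1.2 (FDR 1.40e-07 and 3.65e-06 from edgeR). PYCR3, a reductase of proline synthesis, and BCAT1, a branched-chain aminotransferase, had log2 fold changes of -1.98 and -1.13 in hypoxia and 1.51 and 1.48 with 32-134D, all called.

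Of 29 tested transporters, 7 (24.1%) were called higher and 5 (17.2%) lower in hypoxia, and 6 (20.7%) higher and 4 (13.8%) lower with 32-134D. These shares were near those over all genes tested, 19.5% and 20.3% in hypoxia and 16.2% and 13.7% with 32-134D. With total counts as the scale the splits were 6 and 9, and 8 and 2. The 4 lower with 32-134D became 2 without its replicate 1 or replicate 2. Without its replicate 3, SLC6A9 and SLC7A1 were also called lower, at -0.86 and -0.69, where 14.1% of all genes tested were called lower. In that fit SLC7A10 and SLC38A4 were newly called higher, at 0.87 and 0.82, and SLC6A6 and SLC36A4 were no longer called. SLC1A5 and SLC1A4, which carry glutamine, alanine and serine among others, had log2 fold changes of 1.49 and 1.65 in hypoxia (FDR 8.75e-08 and 1.13e-09 from edgeR) and -0.67 and -0.94 with 32-134D (FDR 0.000262 and 4.84e-07). SLC6A14, a broad importer of neutral and cationic amino acids, was at 24.5, 20.3 and 21.3 CPM in vehicle at 20% O2, at 1.46, 3.25 and 2.45 CPM in vehicle at 1% O2, and at 19.2, 19.8 and 3.61 CPM with 32-134D. It changed by -3.26 in hypoxia and by 2.64 with 32-134D on the log2 scale (FDR 2.81e-05 and 0.000228 from edgeR), and 3.11 without replicate 3, which lay near the hypoxic vehicle libraries. SLC16A10, a carrier of aromatic amino acids, and SLC7A6, a light chain that also pairs with SLC3A2, had -1.66 and -0.81 in hypoxia and 1.2 and 0.86 with 32-134D, all called. Against vehicle at 20% O2, 7 transporters (24.1%) were called higher with 32-134D and 0 lower. Over all genes tested, these shares were 3.0% and 0.516%. Without replicate 3 of 32-134D, 4 transporters were called higher.

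Of the 11 regulators, 9 (81.8%) were called higher and none lower in hypoxia, against 19.5% higher and 20.3% lower over all genes tested. With 32-134D, 7 (63.6%) were called lower and none higher, against 13.7% lower and 16.2% higher over all genes tested. Without replicate 3 of 32-134D, MYC was also called lower, at -0.61 (FDR 1.30e-08 from edgeR). In that fit 14.1% of all genes tested were called lower, and TRIB3 was at -1.52. The list of regulators was written from knowledge of which factors act on these genes, with earlier results known, so its counts are a description. ATF4 was at 238, 221 and 221 CPM in vehicle at 20% O2, at 974, 1019 and 984 CPM in vehicle at 1% O2, and at 415, 408 and 484 CPM with 32-134D, with no overlap. Its log2 fold changes were 2.13 and -1.19 (FDR 4.09e-11 and 2.42e-08 from edgeR). TRIB3, a pseudokinase induced by ATF4 that restrains it, had 2.62 and -1.14, and DDIT3, the stress factor CHOP, had 2.10 and -1.22, all called. CEBPB, a partner of ATF4, and NUPR1, a stress-induced chromatin protein, had 1.87 and 1.11 in hypoxia and -0.81 and -1.11 with 32-134D, all called. NUPR1 was within a log2 fold change of 0.01 of vehicle at 20% O2 with the compound, whereas ATF4 was still 0.94 above it (FDR 2.42e-06 from edgeR). EIF2AK4, the kinase that senses uncharged tRNA, and ATF5 were not called in hypoxia, at 0.08 and 0.28.

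**Figure D5:**
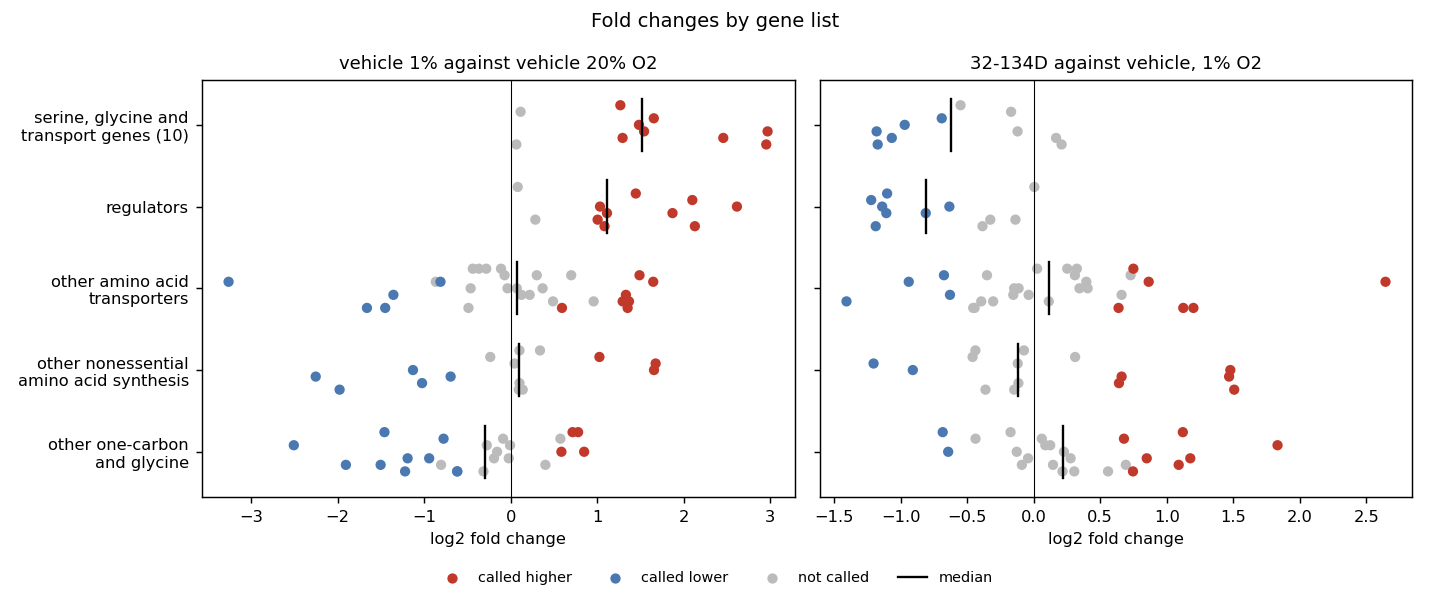
Log2 fold changes of the 10 genes and of the genes of the 4 lists, with 1 point per gene, colored by call, and a line at the median of each list. The regulators and the 10 genes lie mostly above 0 in hypoxia, with medians of 1.11 and 1.51, and mostly below 0 with 32-134D, at -0.81 and -0.62, and the other lists hold points on both sides.

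Among genes with a mean of at least 10 CPM, the profile over the 9 libraries nearest to each of the 10 genes was sought by the root mean square difference of centered log2 CPM. MTHFD2 and SLC3A2 were nearest to each other, at 0.106. PSAT1 was nearest to the transporter SLC1A5 at 0.0831, SHMT2 to the transporter SLC38A2 at 0.0680, and ASNS to ODC1, the enzyme that starts polyamine synthesis, at 0.137. PHGDH was nearest to MEX3C, an RNA-binding ubiquitin ligase, at 0.0934, and PSPH to the kinase gene RPS6KA4 at 0.0286. SLC7A5 was nearest to RASD1 at 0.135 and SLC7A11 to EREG, a growth factor of the EGF family, at 0.172. ALDH1L2 had no close neighbor, as PLA2G4C was nearest at 0.625. The 9 libraries share 3 conditions, so these distances describe likeness of pattern only.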

How the data were processed

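RNA-seq was made from 9 Hep3B cultures, 3 per group, and samples were grouped by their labels. The authors deposited raw read counts per Ensembl gene, without normalization. The submitters' notes name FastQC, MultiQC, STAR, featureCounts, DESeq2 and GRCh38, and the paper also trimmed with Bbduk. The strand setting and tool versions are not given in the sources used here, so genes that overlap on opposite strands may share reads. All 9 columns were matched to samples by name, and 0 were left out. Total counts per library, from 6013980 to 40549699, limit the precision of genes with few counts.

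The 3 comparisons between groups were made with the quasi-likelihood test of edgeR 4.0.16 (R 4.3.3) after TMM scaling. A single model held the 9 libraries and the 22672 genes whose counts summed to at least 10. FDRs are Benjamini-Hochberg adjusted over all of these genes. The procedure was tested on simulated counts. The SE is the log2 fold change divided by the square root of the F statistic. Every replicate pair differed beyond counting error (chi-square of 1.62 to 36.4 for each degree of freedom), so each library counted as 1 sample. Positions, exon lengths and overlaps are from GENCODE 29 and promoters from RefSeq.

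The 10 genes and the gene lists were chosen with earlier results of these data known. From each of the 4 lists the text names up to 4 genes per comparison with the largest change among those called with a mean of at least 10 CPM in the higher group, and for each of the 10 genes the 1 gene of nearest profile. Any other gene of a list was named after its values were seen. The values of 1 gene that this rule names are not reported here. Alternatives were DESeq2 1.42.0, other scalings, filters and fold limits, fits of only the groups compared, a replicate block, leaving out each library, and 1 chosen after seeing the data, the sum of ASNS and PSPH with genes that may share their reads.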

Additional observations from a re-analysis of the deposited data

How the results depend on the processing

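Hypoxia gave 8 of the 10 genes higher under every alternative run. With 32-134D, 5 were lower, and the count was 3 with a fold limit of 2, 4 with total library size, 6 with no fold limit, and between 4 and 8 with a library left out, 8 without replicate 3 of 32-134D. That library also turned the log2 fold change of SLC7A11 from 0.17 to -0.66, the low end of a range up to 0.53 with a library left out, and the cause was not tested. Against vehicle at 20% O2 the count was 7, and it ran from 6 to 8 with a library left out. A replicate block gave 8, 5 and 7 in the 3 comparisons. Samples with the same replicate number correlated between -0.246 and 0.107 in their deviations from the group means, so no pairing by number was seen. With 3 libraries per group, and no comparison with samples of unlike number, this cannot settle whether the cultures were paired. With the block, the log2 fold change of SLC7A11 with 32-134D was -0.01 (FDR 0.980 from edgeR). Total library size moved the median of all genes by -0.211 in hypoxia, 0.185 with 32-134D and -0.0261 against vehicle at 20% O2. The other fold limits were not part of the single-gene tally. Of the single-gene values under the remaining alternatives, 495 kept their direction or their side of the threshold, 8 lost a call, 3 gained a call and 1 reversed. The 495 include changes of sign in genes that were not called, such as PSPH with total library size. The 1 reversed was SLC7A11 with 32-134D without its replicate 3, which was also called there. Of the list counts, 391 stayed within 1.5 times and 65 moved. ALDH1L2 could not be tested with at least 10 counts in every library.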
